A study of Mus musculus with 22 samples.

Results

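The genes described here are 47 genes of cell cycle progression and DNA replication, followed through mouse hepatocellular carcinomas and normal liver. They fall into 5 regulators of S phase entry, 14 replication genes and 28 mitosis genes. They were found by platform gene symbol, or by its current alias (Cdc45 was listed as Cdc45l and Cdk1 as Cdc2a) and grouped by role. A named spot was present for 42 of them (4 regulators, 13 replication and 25 mitosis genes) among 18175 features tested, and 40 had a value in all 11 RNA samples. Foxm1, Pcna, Ccnb1, Cdc25c and Kif20a were not analysed here.

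In a dividing cell, D-type and E-type cyclins with their kinases release E2F transcription factors, which switch on the genes for the replication machinery. Cdc6 and the MCM helicase license replication origins in G1, ribonucleotide reductase and thymidylate synthase supply nucleotides in S phase, and Cdk1 with B-type cyclins then drives mitosis, which ends when the Cdc20-bound ubiquitin ligase destroys those cyclins. Adult hepatocytes rarely divide, so that transcripts of this programme are low in normal liver, and in liver tumours they are widely used as a measure of proliferation.

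The study compared 6 tumours labelled IkB-SR, 4 tumours labelled Mdr2-KO and 1 wild-type liver. Mice of both tumour groups lack Mdr2 (Abcb4), the canalicular phospholipid transporter, and develop liver cancer after chronic bile-driven inflammation. IkB-SR mice carried 2 transgenes in addition, a superrepressor form of the NF-kB inhibitor IkB behind a tetracycline-regulated promoter and a tetracycline transactivator that a hepatocyte-specific promoter drives, so the block of NF-kB was aimed at hepatocytes alone. Each tumour came from an individual mouse. All mice had a mixed genetic background, and sex was recorded as unknown. The labels describe the liver as from wild-type mice of the same background, without saying how many, and give it the tumour stage carcinoma. Each RNA was hybridised on 2 arrays with swapped dyes against a universal reference RNA pooled from cell lines, and every value below is the mean log2 ratio of sample over reference from the 2 arrays unless stated otherwise. A negative value therefore means less signal than in the reference, whose cell lines divide. Nothing in the labels used here ties a replicate number in one tumour group to a number in the other.

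The labels were checked on genes outside the cell cycle. Nfkbia, the gene of the inhibitor of which the transgene encodes a superrepressor form, measured 2.30, 2.28, 1.69, 3.11 and 2.28 in IkB-SR tumours 3, 4, 6, 9 and 10, but 0.0027 in the sample labelled IkB-SR 8. The Mdr2-KO tumours 1, 2, 5 and 7 had 0.30, 0.12, 0.05 and 0.04, and the wild-type liver had 0.09. The sample labelled IkB-SR 8 thus lay at the level of samples without the transgene, and results are given with and without it. The difference in Nfkbia was 1.82 over all tumours (exact permutation test, two-sided, p = 0.0429) and 2.21 without that sample, for which no p is given because it was singled out by this gene. Abcb4 lay between 2.26 and 3.54 in IkB-SR tumours, at 3.47, 2.78, 3.30 and 2.26 in Mdr2-KO tumours and at 4.46 in the liver, where it was measured on 1 array only. The Y-linked gene Eif2s3y was high in IkB-SR tumour 6 (2.34), the sample labelled IkB-SR 8 (1.63), IkB-SR tumour 9 (2.46) and the liver (2.33), and at -2.98 or less in the other 7 samples.

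The arrays also fell into 2 sets by how far the dye orientations differed. In IkB-SR tumours 3, 4, 9 and 10 and Mdr2-KO tumours 1 and 2, the SD over spots of the difference between orientations was 0.215 to 0.305 (set 1). In IkB-SR tumour 6, the sample labelled IkB-SR 8, Mdr2-KO tumours 5 and 7 and the liver it was 0.662 to 0.758 (set 2). The limit of 0.5 between the sets was chosen after these values were seen. Among marker lists of other cell types, measured hepatocyte markers (13 of 15 named) averaged 5.54 to 6.38 in IkB-SR tumours, 5.37 to 5.70 in Mdr2-KO tumours and 5.85 in liver, which fits the labelled tissue. Macrophage and Kupffer cell markers (10 of 11) averaged 1.71 to 2.21 in IkB-SR tumours, 2.20 to 3.08 in Mdr2-KO tumours and 1.47 in liver. Endothelial markers (7 of 9) averaged 0.72 to 1.64 in IkB-SR tumours, 1.71 to 3.10 in Mdr2-KO tumours and 1.78 in liver, and B and plasma cell markers (5 of 7) averaged -4.17 to -3.60 in IkB-SR tumours, -3.28 to -2.70 in Mdr2-KO tumours and -4.08 in liver. The 1 neutrophil marker measured of 7 had -1.15 to 0.73 in IkB-SR tumours, 1.24 to 2.84 in Mdr2-KO tumours and -0.56 in liver. Stellate and fibroblast markers (6 of 8) averaged -2.75 to -2.02 in IkB-SR tumours, -2.19 to -1.78 in Mdr2-KO tumours and -2.43 in liver. T and NK cell markers (3 of 9) averaged -0.58 to 0.29, -0.56 to 0.18 and 0.04 in the same order. Cholangiocyte markers (6 of 7) averaged -1.92 to -1.29, -1.84 to -0.89 and -1.49. In these lists the tumour groups overlapped. Mdr2-KO tumour 1 was the highest of all samples in the macrophage, endothelial and stellate lists and for the neutrophil marker. In bulk tissue, fewer cells of a type and less RNA per cell cannot be told apart.

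Among the 10 tumours, the mitosis genes varied more from tumour to tumour than between the genotypes' means. Mdr2-KO tumour 5 had the highest value of all tumours for 22 of the 40 members measured everywhere, 19 of them among the 24 mitosis genes. The same tumour was highest for 9.87% of the 14704 features with a value in all samples. Mdr2-KO tumour 2 had the lowest value for 24 of the 40, again 19 of the 24 mitosis genes, against 3.88% of all features. In the means of both dyes, the top and the bottom of the mitosis programme thus belonged to the same genotype. By the same means, the 6 IkB-SR tumours lay between Mdr2-KO tumours 2 and 5 for most mitosis genes. On Cy5 arrays alone this order did not hold, as given below.

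**Figure D1:**
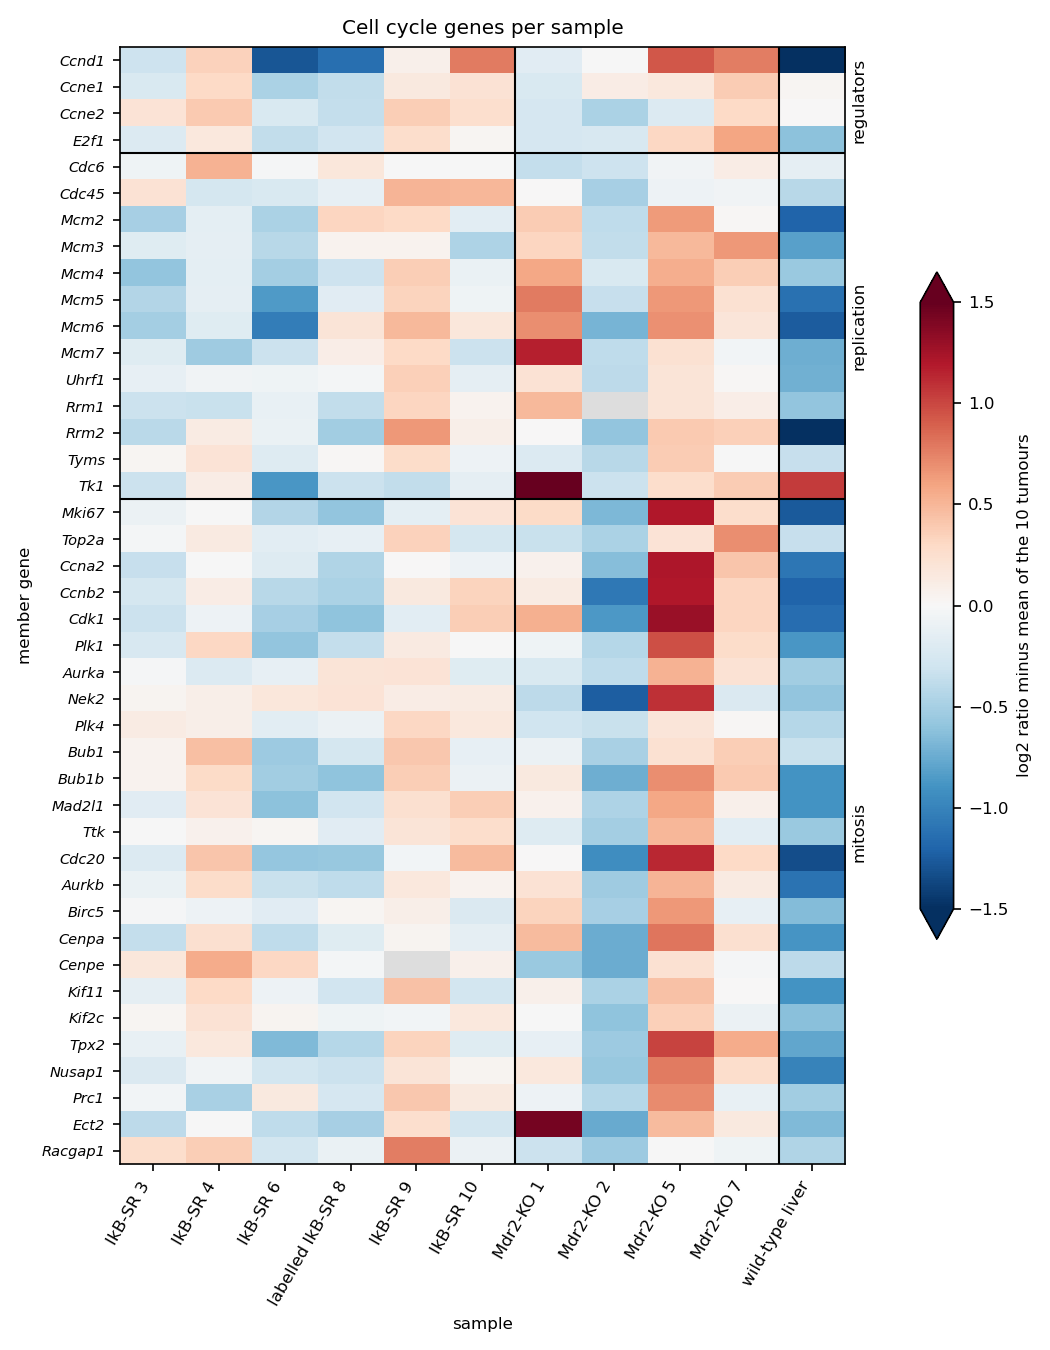
Each row is a member gene and each column a sample (IkB-SR tumours, Mdr2-KO tumours, then the wild-type liver); colour gives the log2 ratio minus the mean of that gene over the 10 tumours. The column of Mdr2-KO tumour 5 is high for 22 of 40 genes and that of Mdr2-KO tumour 2 is lowest for 24, and the liver column is low for most mitosis genes.

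Averaged over the 24 mitosis genes, the IkB-SR tumours spanned 1.41-fold, with -3.24 in tumour 6 as the lowest and -2.74 in tumour 9 as the highest, and -3.05, -2.83, -3.22 and -2.91 in tumour 3, tumour 4, the sample labelled 8 and tumour 10. The Mdr2-KO tumours spanned 2.49-fold, with -3.56 in tumour 2 and -2.25 in tumour 5, and -2.87 and -2.77 in tumours 1 and 7. The groups averaged -3.00 ± 0.21 in IkB-SR tumours (SD, n = 6) and -2.86 ± 0.54 in Mdr2-KO tumours (n = 4), and the IkB-SR range lay inside the Mdr2-KO range. The wild-type liver had -3.74, below every tumour.

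The 12 replication genes with complete values ordered the tumours differently at the top. Mdr2-KO tumour 1 led with -2.35, ahead of Mdr2-KO tumour 5 (-2.42) and IkB-SR tumour 9 (-2.51), and it was highest for 5 of the 12 genes, while being highest for 21.1% of all features. IkB-SR tumour 6 (-3.21) and Mdr2-KO tumour 2 (-3.19) were lowest. The group means were -2.88 ± 0.23 in IkB-SR tumours and -2.64 ± 0.38 in Mdr2-KO tumours (SD, n = 6 and 4), and the groups overlapped. The liver had -3.43, again below every tumour. Macrophage, endothelial, stellate and neutrophil markers were also highest in Mdr2-KO tumour 1, and their part in its replication level was not tested.

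For the 4 regulators, IkB-SR tumour 6 was lowest (-1.94) and Mdr2-KO tumour 7 highest (-0.84), and the liver had -1.97. Group means were -1.42 ± 0.41 in IkB-SR tumours and -1.24 ± 0.35 in Mdr2-KO tumours (SD, n = 6 and 4). The sample labelled IkB-SR 8 (-1.89) was next to lowest, and without it the IkB-SR mean was -1.33 ± 0.39 (n = 5).

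These levels depended on the dye in set 2. The mitosis mean of Mdr2-KO tumour 5 was -1.87 on the array where the tumour carried Cy3 and -2.62 where it carried Cy5. For Mdr2-KO tumour 7 the same values were -2.24 and -3.27. On Cy3 arrays alone Mdr2-KO tumour 5 was highest for 18 of 25 mitosis genes and Mdr2-KO tumour 2 lowest for 20, but on Cy5 arrays alone the counts were 8 and 4 of 24. Relative to the tumour mean, the mitosis average on Cy5 arrays was 0.41 in Mdr2-KO tumour 5 and -0.48 in Mdr2-KO tumour 2. However, neither tumour was the extreme on those arrays. The highest mitosis mean was -2.58 in IkB-SR tumour 9, ahead of -2.62 in Mdr2-KO tumour 5. The lowest was -3.61 in IkB-SR tumour 6, below -3.51 in Mdr2-KO tumour 2. Median centring gave 19 and 21 of 24 and quantile normalization 18 and 22 of 24.

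**Figure D2:**
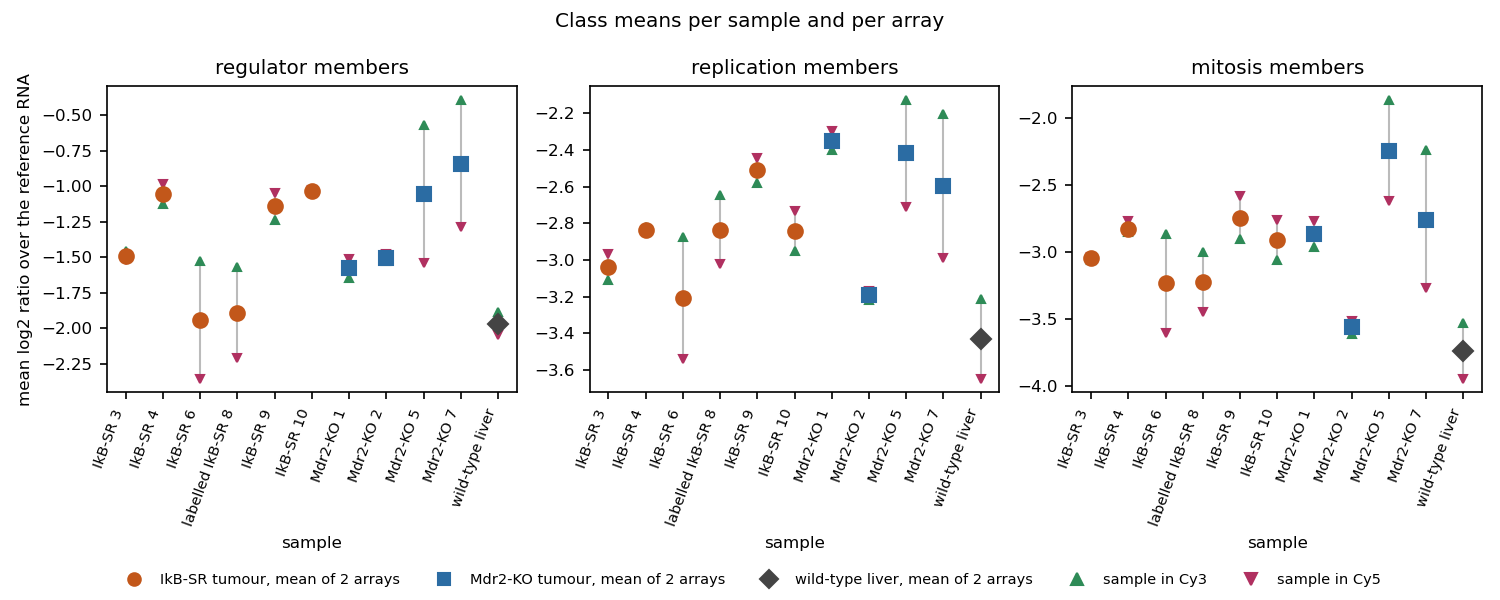
Mean log2 ratio over the reference for the regulator (4), replication (12) and mitosis (24) members in each sample; large symbols are means of 2 arrays, and triangles joined by a line are the Cy3 and the Cy5 array. Mdr2-KO tumours 5 and 2 are the highest and lowest tumours for mitosis (-2.25 and -3.56), and the gap between dyes is wide in the samples of set 2.

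The spread between tumours was itself uneven. For 35 of the 40 members the SD was larger among the 4 Mdr2-KO tumours than among the 6 IkB-SR tumours, against 46.2% of all features. For mitosis genes the median SD was 0.29 in IkB-SR tumours and 0.54 in Mdr2-KO tumours, while over all features it was 0.23 and 0.18. These SDs are of the means of both dyes, and the spread depended on the dye. On Cy3 arrays alone the mitosis mean ran from -3.06 to -2.85 in IkB-SR tumours and from -3.61 to -1.87 in Mdr2-KO tumours. On Cy5 arrays alone the ranges were alike, -3.61 to -2.58 in IkB-SR tumours and -3.51 to -2.62 in Mdr2-KO tumours. No test was made of this difference in spread.

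The promoters of the members were examined for elements known to act in the cycle. E2F sites are the classical element of genes induced at the start of S phase, and the cell cycle genes homology region (CHR), bound by the MuvB complexes, is that of genes induced in G2 and mitosis. RefSeq promoter windows of 300 bases (250 before to 50 after the start, mouse build GRCm38.p6) were found for 38 of the 47 members. The CHR letters TTTGAA, on either strand, occurred in 15 of 23 mitosis, 2 of 13 replication and 0 of 2 regulator genes, against 20.2% of 27025 genes with a window. The E2F letters TTTGGCGC, TTTCGCGC, TTTCCCGC or TTTGCCGC, on either strand, occurred in 6 of 13 replication genes and 1 of 23 mitosis genes (Cdk1), against 2.605% of genes. CCAAT, the letters of the NF-Y site, occurred in 28 of 38 members, against 41.1% of genes. A match is a run of letters and not a site shown to be used. The sequences below, each the 200 bases before the start read 5′ to 3′ on the gene's strand, show both kinds of element, with E2F letters in capitals for Cdc6 (chr11:98907951-98908150, plus strand) and Mcm5 (chr8:75109309-75109508, plus strand, where 2 matches on opposite strands overlap) and CHR letters in capitals for Mki67 (chr7:135716380-135716579, minus strand) and Top2a (chr11:99024190-99024389, minus strand).
Cdc6: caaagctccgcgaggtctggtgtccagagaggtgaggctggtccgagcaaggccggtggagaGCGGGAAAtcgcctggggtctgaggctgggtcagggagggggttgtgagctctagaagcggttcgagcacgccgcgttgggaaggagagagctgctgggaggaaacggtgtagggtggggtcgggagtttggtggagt
Mcm5: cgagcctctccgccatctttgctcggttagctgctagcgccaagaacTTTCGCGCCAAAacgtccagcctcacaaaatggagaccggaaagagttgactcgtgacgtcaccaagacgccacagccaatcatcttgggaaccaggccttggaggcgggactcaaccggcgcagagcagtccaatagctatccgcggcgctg
Mki67: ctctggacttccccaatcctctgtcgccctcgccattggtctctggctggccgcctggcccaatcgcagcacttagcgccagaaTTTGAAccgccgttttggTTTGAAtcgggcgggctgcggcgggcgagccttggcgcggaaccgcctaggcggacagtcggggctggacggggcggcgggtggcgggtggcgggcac
Top2a: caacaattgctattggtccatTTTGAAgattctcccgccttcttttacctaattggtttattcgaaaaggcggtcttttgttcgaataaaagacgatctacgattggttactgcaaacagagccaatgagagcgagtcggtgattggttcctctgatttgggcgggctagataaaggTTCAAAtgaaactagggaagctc
The E2F match of Cdc6 begins 138 bases before the start and those of Mcm5 153 and 149 bases before it. The CHR matches of Mki67 begin 116 and 98 bases before the start and those of Top2a 179 and 23, the nearer of these on the opposite strand.

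Of the regulators, Ccnd1, the cyclin that couples growth signals to G1 progression, had the widest range, 4.63-fold between tumours. It measured -1.72 to 0.34 in IkB-SR tumours (median -0.56), and -0.60, -0.44, 0.49 and 0.32 in Mdr2-KO tumours 1, 2, 5 and 7, against -2.33 in the liver. Every tumour was above the liver, and the lowest were IkB-SR tumour 6 and the sample labelled IkB-SR 8 (-1.56), while the groups overlapped. Ccne1 and Ccne2, the E-type cyclins that activate Cdk2 at the start of S phase, kept closer together. Ccne1 lay at -2.10 to -1.34 in IkB-SR tumours (median -1.67), at -1.86, -1.52, -1.47 and -1.25 in Mdr2-KO tumours and at -1.60 in liver. Ccne2 lay at -1.72 to -0.96 in IkB-SR tumours (median -1.13), at -1.62, -1.83, -1.56 and -1.07 in Mdr2-KO tumours and at -1.36 in liver. For both E-type cyclins the liver sat among the tumours. E2f1, the activating E2F factor, had -2.35 to -1.72 in IkB-SR tumours (median -2.07), -2.23, -2.22, -1.67 and -1.38 in Mdr2-KO tumours and -2.59 in liver, with all tumours above the liver.

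Cdc6, the loader of the MCM helicase, varied little. It ran from -1.11 to -0.53 in IkB-SR tumours (median -1.05) and was -1.41, -1.36, -1.10 and -0.93 in Mdr2-KO tumours, against -1.18 in liver. IkB-SR tumour 4 was the highest and Mdr2-KO tumour 1 the lowest, the reverse of that tumour's place for the helicase itself. The 6 subunits of the MCM2-7 helicase, which opens the DNA at the fork, behaved as a group. Mcm2 measured -4.02 to -3.21 in IkB-SR tumours (median -3.68), -3.15, -3.91, -2.89 and -3.51 in Mdr2-KO tumours and -4.73 in liver. Mcm3 measured -3.61 to -3.09 in IkB-SR tumours (median -3.30), -2.82, -3.51, -2.66 and -2.50 in Mdr2-KO tumours and -3.96 in liver. Mdr2-KO tumours 1, 5 and 7 exceeded every IkB-SR tumour for Mcm3, and Mdr2-KO tumour 2 was within the IkB-SR range. Mcm4 measured -3.98 to -3.02 in IkB-SR tumours (median -3.61), -2.80, -3.61, -2.84 and -3.02 in Mdr2-KO tumours and -3.94 in liver. Mcm5 measured -4.70 to -3.52 in IkB-SR tumours (median -4.01), -3.08, -4.20, -3.21 and -3.62 in Mdr2-KO tumours and -4.97 in liver. For Mcm4 and Mcm5, Mdr2-KO tumours 1 and 5 were above all IkB-SR tumours, and IkB-SR tumour 3 had an Mcm4 value at the liver's. Mcm6 measured -4.96 to -3.43 in IkB-SR tumours (median -3.93), -3.22, -4.62, -3.23 and -3.74 in Mdr2-KO tumours and -5.17 in liver. Mcm7 measured -2.85 to -2.03 in IkB-SR tumours, -1.15, -2.70, -2.10 and -2.36 in Mdr2-KO tumours and -3.06 in liver, with Mdr2-KO tumour 1 standing 3.25-fold above the lowest tumour. Cdc45, which joins the MCM ring in the active helicase, was instead highest in IkB-SR tumours 9 and 10 (-1.74 and -1.75) and lowest in Mdr2-KO tumour 2 (-2.75).

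Among the genes of nucleotide supply, Rrm2, the S phase subunit of ribonucleotide reductase, was the member farthest above liver in its class. It measured -3.72 to -2.56 in IkB-SR tumours (median -3.21) and -3.20, -3.80, -2.81 and -2.85 in Mdr2-KO tumours, against -4.76 in liver. IkB-SR tumour 9 was the highest and Mdr2-KO tumour 2 the lowest, and the groups overlapped. Its partner Rrm1 had -3.47 to -2.78 in IkB-SR tumours, -2.62, -2.91 and -3.01 in Mdr2-KO tumours 1, 5 and 7, no value in Mdr2-KO tumour 2, and -3.69 in liver. Tk1, the salvage kinase for thymidine, broke the pattern: it measured -2.77 to -1.79 in IkB-SR tumours (median -2.22) and -0.30, -2.22, -1.64 and -1.52 in Mdr2-KO tumours, against -0.85 in liver. Every tumour but Mdr2-KO tumour 1 lay below the liver for Tk1, and its 5.56-fold span was the widest of the 40 members. Tyms, thymidylate synthase, lay between -2.34 and -1.54 in all 10 tumours and at -2.27 in liver.

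Of the mitosis genes, Mki67, the antigen that coats mitotic chromosomes and is the common histological marker of proliferation, measured -4.50 to -3.69 in IkB-SR tumours (median -4.02), -3.62, -4.58, -2.70 and -3.64 in Mdr2-KO tumours 1, 2, 5 and 7 and -5.16 in liver. Mdr2-KO tumour 5 was 3.68-fold above Mdr2-KO tumour 2, and these 2 tumours bracketed all the others. Top2a, the topoisomerase that untangles sister chromatids, measured -3.27 to -2.66 in IkB-SR tumours (median -3.08) and -3.35, -3.48, -2.80 and -2.31 in Mdr2-KO tumours, against -3.36 in liver. Here Mdr2-KO tumour 7 was highest, and Mdr2-KO tumours 1 and 2 were at the level of the liver.

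Cdk1, the kinase of mitotic entry, measured -4.47 to -3.49 in IkB-SR tumours (median -4.10), -3.33, -4.72, -2.57 and -3.54 in Mdr2-KO tumours and -5.00 in liver. Its partner cyclin Ccnb2 measured -3.03 to -2.23 in IkB-SR tumours (median -2.64), -2.45, -3.63, -1.36 and -2.24 in Mdr2-KO tumours and -3.77 in liver. The fold between Mdr2-KO tumour 5 and Mdr2-KO tumour 2 was 4.44 for Cdk1, 4.83 for Ccnb2 and 3.59 for Ccna2, the cyclin that spans S phase and G2. Nek2, a centrosome-splitting kinase, showed the widest span among mitosis genes, 5.02-fold. It was tight in IkB-SR tumours, -1.67 to -1.49, while Mdr2-KO tumours had -2.10, -2.94, -0.61 and -1.92 and the liver -2.30. Every IkB-SR tumour lay above 3 of the Mdr2-KO tumours and below the remaining 1. Plk1, Aurka and Plk4, kinases of mitotic entry and of the centrosome, spanned 2.95-fold, 1.87-fold and 1.57-fold over the tumours.

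Of the spindle checkpoint genes and their target, Bub1 had its own order of tumours, with IkB-SR tumour 4 highest and IkB-SR tumour 6 lowest. Bub1, a checkpoint kinase at the kinetochore, measured -4.36 to -3.36 in IkB-SR tumours (median -3.85), -3.90, -4.30, -3.59 and -3.45 in Mdr2-KO tumours and -4.15 in liver. The liver was inside both tumour ranges for Bub1. Cdc20, the ubiquitin ligase activator that the checkpoint restrains, measured -3.95 to -2.90 in IkB-SR tumours (median -3.50), -3.37, -4.30, -2.25 and -3.07 in Mdr2-KO tumours and -4.71 in liver, with all tumours above the liver. Bub1b, Mad2l1 and Ttk, further checkpoint components, were all highest in Mdr2-KO tumour 5, at -3.06, -1.85 and -1.72. Cenpe, the kinetochore motor, had -2.22 to -1.63 in 5 IkB-SR tumours (median -2.02; tumour 9 had no value), -2.74, -2.94, -1.97 and -2.21 in Mdr2-KO tumours and -2.58 in liver. Aurkb and Birc5, of the chromosomal passenger complex, and Cenpa, the centromeric histone, each had Mdr2-KO tumour 5 at the top (-3.36, -1.11 and -1.92) and Mdr2-KO tumour 2 at the bottom (-4.41, -2.26 and -3.48).

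Among spindle motors and cytokinesis genes, Ect2, a gene required for cytokinesis, measured -2.58 to -1.83 in IkB-SR tumours (median -2.41), -0.64, -2.84, -1.61 and -1.93 in Mdr2-KO tumours and -2.74 in liver. Mdr2-KO tumour 1 stood well above the rest, as it did for Mcm7 and Tk1. Racgap1, its partner and a subunit of the centralspindlin complex, measured -2.26 to -1.21 in IkB-SR tumours (median -1.90), -2.31, -2.53, -1.99 and -2.05 in Mdr2-KO tumours and -2.43 in liver. IkB-SR tumours 3, 4 and 9 were above every Mdr2-KO tumour for Racgap1. Kif11, Kif2c, Tpx2, Nusap1 and Prc1, which act on spindle microtubules, were all highest in Mdr2-KO tumour 5. The 3 spots of Prc1 disagreed in the direction of the difference between groups (-0.27 to 0.20).

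Replication and mitosis genes did not keep step in every tumour. Taken as distance from the mean of the 10 tumours, IkB-SR tumours 3, 4, 6, 9 and 10 stood at -0.26, -0.05, -0.42, 0.27 and -0.06 for replication and at -0.10, 0.12, -0.29, 0.20 and 0.03 for mitosis. The sample labelled IkB-SR 8 was at -0.05 for replication and -0.28 for mitosis. Mdr2-KO tumour 1 was at 0.43 for replication and 0.07 for mitosis, whereas Mdr2-KO tumour 5 was at 0.36 and 0.70. Mdr2-KO tumour 2 was low in both, at -0.41 for replication and -0.62 for mitosis, and Mdr2-KO tumour 7 was at 0.19 and 0.18. The liver was 0.65 below the tumour mean for replication and 0.79 below for mitosis. Replication minus mitosis, on this scale, was thus 0.23 in the sample labelled IkB-SR 8, -0.17 to 0.07 in the other IkB-SR tumours, and 0.36, 0.21, -0.33 and 0.01 in Mdr2-KO tumours 1, 2, 5 and 7. The range of the IkB-SR tumours lay inside that of the Mdr2-KO tumours.

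**Figure D3:**
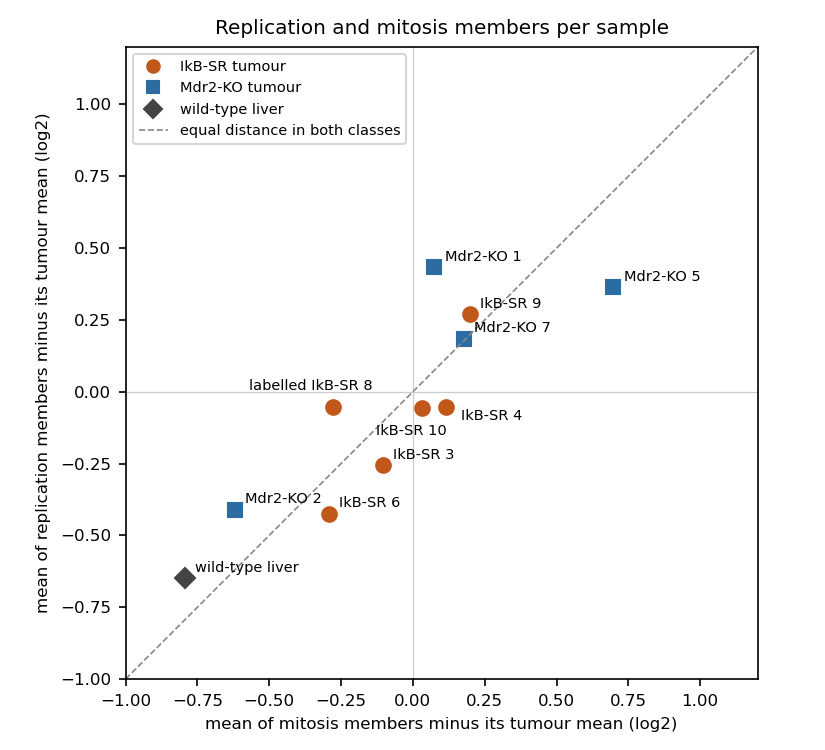
Mean of 12 replication members (vertical) against mean of 24 mitosis members (horizontal) in each sample, both as log2 distance from the mean of the 10 tumours; the dashed line marks equal distances. Mdr2-KO tumour 5 lies below the line (0.36 against 0.70) and Mdr2-KO tumour 1 above it (0.43 against 0.07), and the liver is lowest in both.

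Between IkB-SR and Mdr2-KO tumours, 0 of the 42 members passed the test in limma (Benjamini-Hochberg over all features, threshold 0.05), and 0 of the 18175 features did (0%). At an unadjusted p under 0.05, 1 member was higher in IkB-SR tumours (Cenpe) and 4 were lower (Mcm3, Mcm4, Rrm1 and Tk1), against 3.02% of features higher and 9.34% lower. The difference was below 0 for 32 of 42 members, with 3 of 4 regulators, 10 of 13 replication and 19 of 25 mitosis genes, against 56.7% of all features. The median difference was -0.17 for regulators, -0.36 for replication and -0.14 for mitosis genes, beside -0.02 for all features. Without the sample labelled IkB-SR 8 these medians were -0.12, -0.36 and -0.09. The mitosis median was 0.06 without Mdr2-KO tumour 5, -0.34 without Mdr2-KO tumour 2, 0.03 on Cy5 arrays alone, 0.10 with array weights and -0.01 under quantile normalization, where 13 of 25 mitosis genes were below 0. The replication median was -0.47 to -0.20 when each tumour was left out in turn, -0.21 on Cy5 arrays alone, -0.17 under quantile normalization and -0.13 with array weights. For 0 of the 40 complete members did the groups avoid overlap, against 3.03% of features.

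With all tumours and both dyes, the replication genes held the lowest p-values. At an unadjusted limma p under 0.05 were 4 of 13, with 5 on Cy3 arrays alone and 3 under median centring. The count was 1 without the sample labelled IkB-SR 8, 1 under quantile normalization and 0 on Cy5 arrays alone. Over all members, 5 of 42 (11.9%) were at that p with all tumours, against 12.4% of all features. Endothelial, B and plasma cell and neutrophil markers were also lower in every IkB-SR tumour than in any Mdr2-KO tumour, and their part in the replication genes' difference was not tested. Mcm4 differed by -0.53 (95% interval -1.01 to -0.06, limma adjusted p = 0.353), Mcm3 by -0.45 (-0.89 to -0.02, 0.385) and Tk1 by -0.80 (-1.53 to -0.07, 0.366). Mcm5 differed by -0.55 (-1.13 to 0.03, limma adjusted p = 0.439), Mcm6 by -0.36 (-1.14 to 0.42, 0.813) and Mcm2 by -0.27 (-0.79 to 0.24, 0.76). All 6 MCM subunits were below 0, by a median of -0.43, and all 6 stayed below 0 under median centring, under quantile normalization, on Cy3 or Cy5 arrays alone, within set 1 (median -0.23), within set 2 (-0.80) and without the sample labelled IkB-SR 8 (-0.48). Within set 1 this rested on Mdr2-KO tumour 1: the mean of the 6 subunits was -3.76, -3.57, -3.05 and -3.52 in IkB-SR tumours 3, 4, 9 and 10, against -2.70 in Mdr2-KO tumour 1 and -3.76 in Mdr2-KO tumour 2. The set 1 median over the 13 replication genes was -0.50 against Mdr2-KO tumour 1 alone and 0.34 against Mdr2-KO tumour 2 alone. Rrm2 differed by -0.07 (-0.64 to 0.51, limma adjusted p = 0.976), and Cdc6 by 0.25 in the other direction (-0.05 to 0.56, 0.528).

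Of the regulators, Ccnd1 differed by -0.63 (95% interval -1.58 to 0.32, limma adjusted p = 0.651), E2f1 by -0.17 (-0.61 to 0.27, 0.868), Ccne1 by -0.18 (-0.58 to 0.23, 0.836) and Ccne2 by 0.26 (-0.17 to 0.69, 0.693). Among mitosis genes, Cenpe differed by 0.49 (0.02 to 0.97, limma adjusted p = 0.391) and Racgap1 by 0.39 (-0.07 to 0.85, 0.499). Mki67 differed by -0.45 (-1.14 to 0.24, limma adjusted p = 0.663), Cdk1 by -0.53 (-1.33 to 0.27, 0.646) and Ect2 by -0.54 (-1.33 to 0.24, 0.634). Ccnb2 at -0.24 (-1.06 to 0.59), Cdc20 at -0.21 (-1.04 to 0.62), Top2a at -0.04 (-0.53 to 0.46) and Bub1 at -0.01 (-0.52 to 0.50) had limma adjusted p of 0.918, 0.928, 0.984 and 0.996.

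The difference for mitosis genes and regulators had opposite signs in the 2 dye sets. Within set 1, IkB-SR tumours were higher than Mdr2-KO tumours for 24 of 25 mitosis genes (median 0.36) and 4 of 4 regulators (0.31). Within set 2 they were lower for 24 of 25 mitosis genes (median -0.70) and 4 of 4 regulators (-0.74). Of all features, 38.6% were above 0 within set 1 and 50.7% were below 0 within set 2. Replication genes were lower in set 1 for 8 of 13 (median -0.12) and in set 2 for 12 of 13 (-0.41), beside medians of -0.04 and -0.003 for all features. Ccnd1 differed by 0.31 in set 1 and by -2.05 in set 2, and Tpx2, an activator of Aurora A on the spindle, by 0.38 and -1.33.

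The change of the difference between sets, tested as an interaction in limma, passed for 0 of 42 members and 0 of 18141 features (0%), with a lowest adjusted p of 0.231 among members. At an unadjusted p under 0.05 it was negative for 24 of 42 members (4 regulators, 2 replication and 18 mitosis genes), against 4.43% of features, and positive for 0 members, against 3.24%. Set 1 holds Mdr2-KO tumours 1 and 2 and set 2 holds Mdr2-KO tumours 5 and 7. Against Mdr2-KO tumour 2 alone the set 1 median for mitosis genes was 0.63, and against Mdr2-KO tumour 1 alone it was 0.10. In set 2, IkB-SR tumour 6 alone gave -0.69 and the sample labelled IkB-SR 8 alone gave -0.62. Both of those IkB-SR samples had high Eif2s3y while Mdr2-KO tumours 5 and 7 had -3.95 and -3.67, so in set 2 tumour genotype and this marker cannot be told apart.

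**Figure D4:**
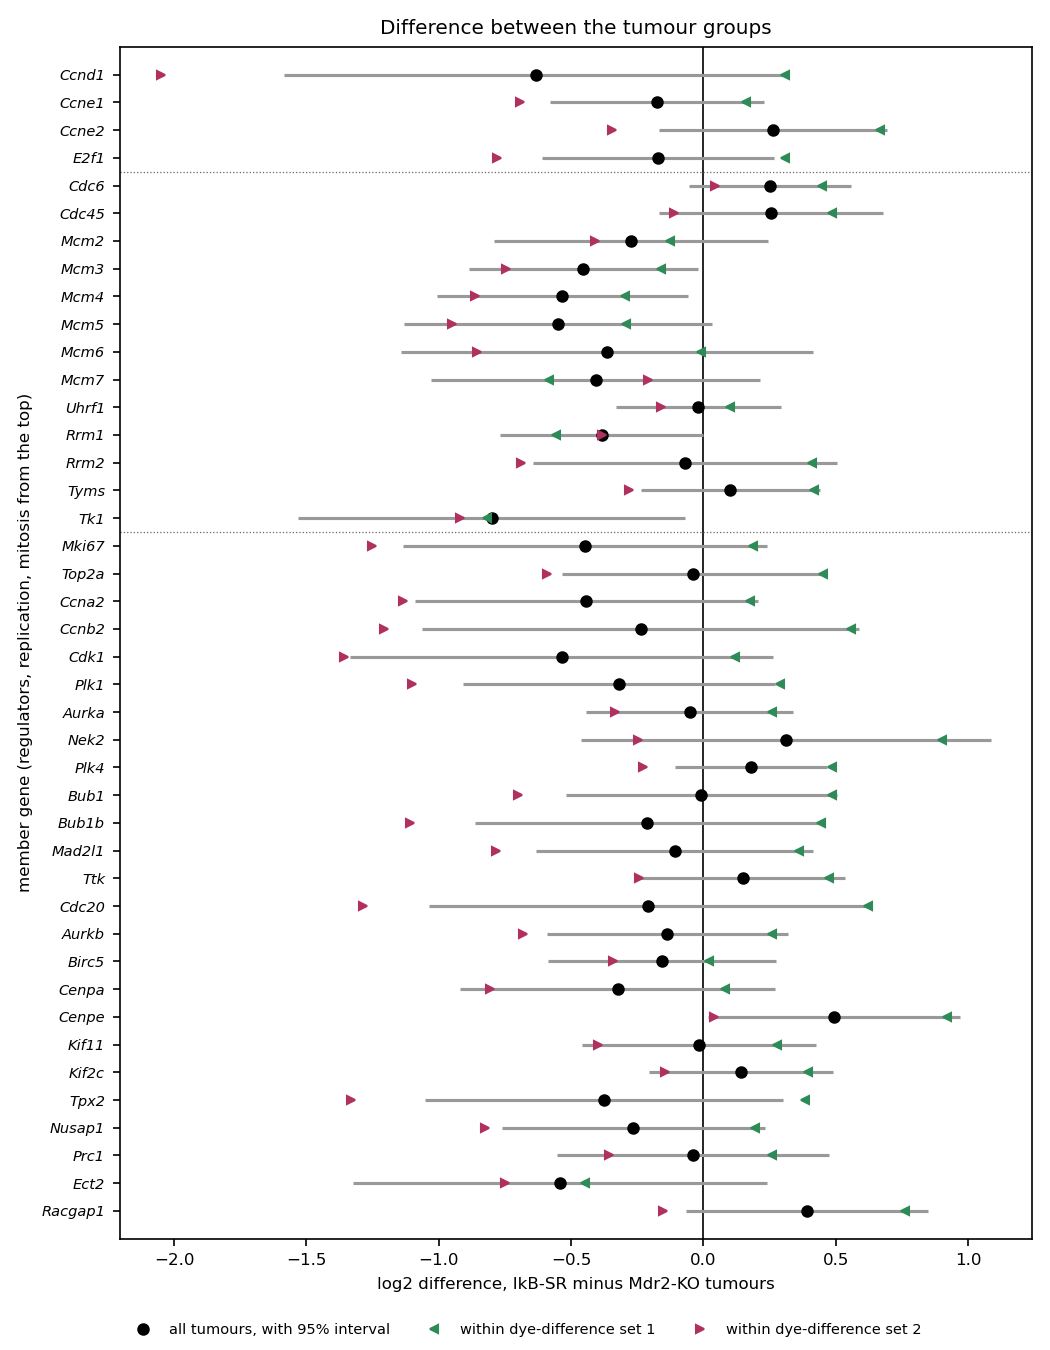
Log2 difference of IkB-SR minus Mdr2-KO tumours for each of 42 members, with black points and grey bars for all tumours and their 95% interval, and triangles for the difference within dye set 1 and within dye set 2. Mitosis members lie right of 0 within set 1 (24 of 25) and left of 0 within set 2 (24 of 25), and the intervals over all tumours span 0 for 37 members.

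Against the single wild-type liver, most members were higher in tumours of both genotypes, but none passed the adjusted test. In IkB-SR tumours 0 of 42 members passed in limma, where 0.167% of 17404 features did, and in Mdr2-KO tumours 0 of 42 passed, against 0.247%. At an unadjusted p under 0.05, 9 members were higher in IkB-SR tumours (6.03% of features) and 1 was lower, Tk1 (3.17%). In Mdr2-KO tumours 20 members were higher (8.45% of features) and 0 lower (2.01%). A fit of all 22 arrays with a dye term and the sample as a random block estimated a correlation of 0.10 between arrays of a sample, and so counted dye swaps of 1 RNA nearly as separate samples. In it, 1 of 42 members was called in IkB-SR tumours (Rrm2). In Mdr2-KO tumours 6 of 42 were called, Ccnd1, Mcm2, Rrm2 and Mki67 among them. The same fit called 366 of all features in IkB-SR tumours and 544 in Mdr2-KO tumours, where the fit of averaged arrays tested 17404. The 1 of 42 members in IkB-SR tumours was thus near the share of all features. The liver is 1 sample, assumed to vary like the tumours, and both comparisons rest on it. Its Eif2s3y was high (2.33), whereas every Mdr2-KO tumour had -3.67 or less. Between Mdr2-KO tumours and liver, tissue and this marker thus cannot be told apart. The IkB-SR group was mixed for the marker, from -3.54 to 2.46, so the 2 comparisons differ in this respect. With Eif2s3y as a covariate, the median mitosis difference from liver was 0.82 in Mdr2-KO and 0.64 in IkB-SR tumours.

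By direction, 40 of 42 members were above the liver in IkB-SR tumours and 39 of 42 in Mdr2-KO tumours, among them 25 of 25 mitosis genes in each. Of all features, 46.9% were above the liver in IkB-SR tumours and 52.9% in Mdr2-KO tumours. Under quantile normalization the mitosis counts were 23 and 20 of 25. The median difference was 0.33 for regulators, 0.57 for replication and 0.72 for mitosis genes in IkB-SR tumours, and 0.39, 0.87 and 0.97 in Mdr2-KO tumours. For all features the medians were -0.02 in IkB-SR tumours and 0.02 in Mdr2-KO tumours. With quantile normalization the class medians, in the same order, were 0.12, 0.25 and 0.37 in IkB-SR tumours and 0.06, 0.41 and 0.45 in Mdr2-KO tumours. Tumour by tumour, 28 of 40 members (2 of 4 regulators, 7 of 12 replication and 19 of 24 mitosis genes) were above the liver in all 10 tumours, against 14.2% of features, and 0 were below it in all 10, against 9.40%.

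The members farthest above the liver came from each class. Ccnd1 lay above the liver by 1.64 in IkB-SR tumours (limma adjusted p = 0.532) and by 2.27 in Mdr2-KO tumours (0.279). Rrm2 lay above it by 1.52 in IkB-SR tumours (limma adjusted p = 0.265) and by 1.59 in Mdr2-KO tumours (0.204). Mki67 stood 1.08 above the liver in IkB-SR tumours (limma adjusted p = 0.581) and 1.53 above it in Mdr2-KO tumours (0.317). For Cdc20 the differences were 1.25 in IkB-SR tumours (limma adjusted p = 0.597) and 1.46 in Mdr2-KO tumours (0.464), and for Mcm6 they were 1.11 (0.631) and 1.47 (0.419) in those groups. Ccne1 at -0.11 and 0.07, Ccne2 at 0.10 and -0.16 and Cdc6 at 0.23 and -0.02 stayed near the liver in IkB-SR and in Mdr2-KO tumours. Tk1 was lower by point estimate in both, at -1.36 in IkB-SR tumours (limma adjusted p = 0.471) and -0.56 in Mdr2-KO tumours (0.814).

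**Figure D5:**
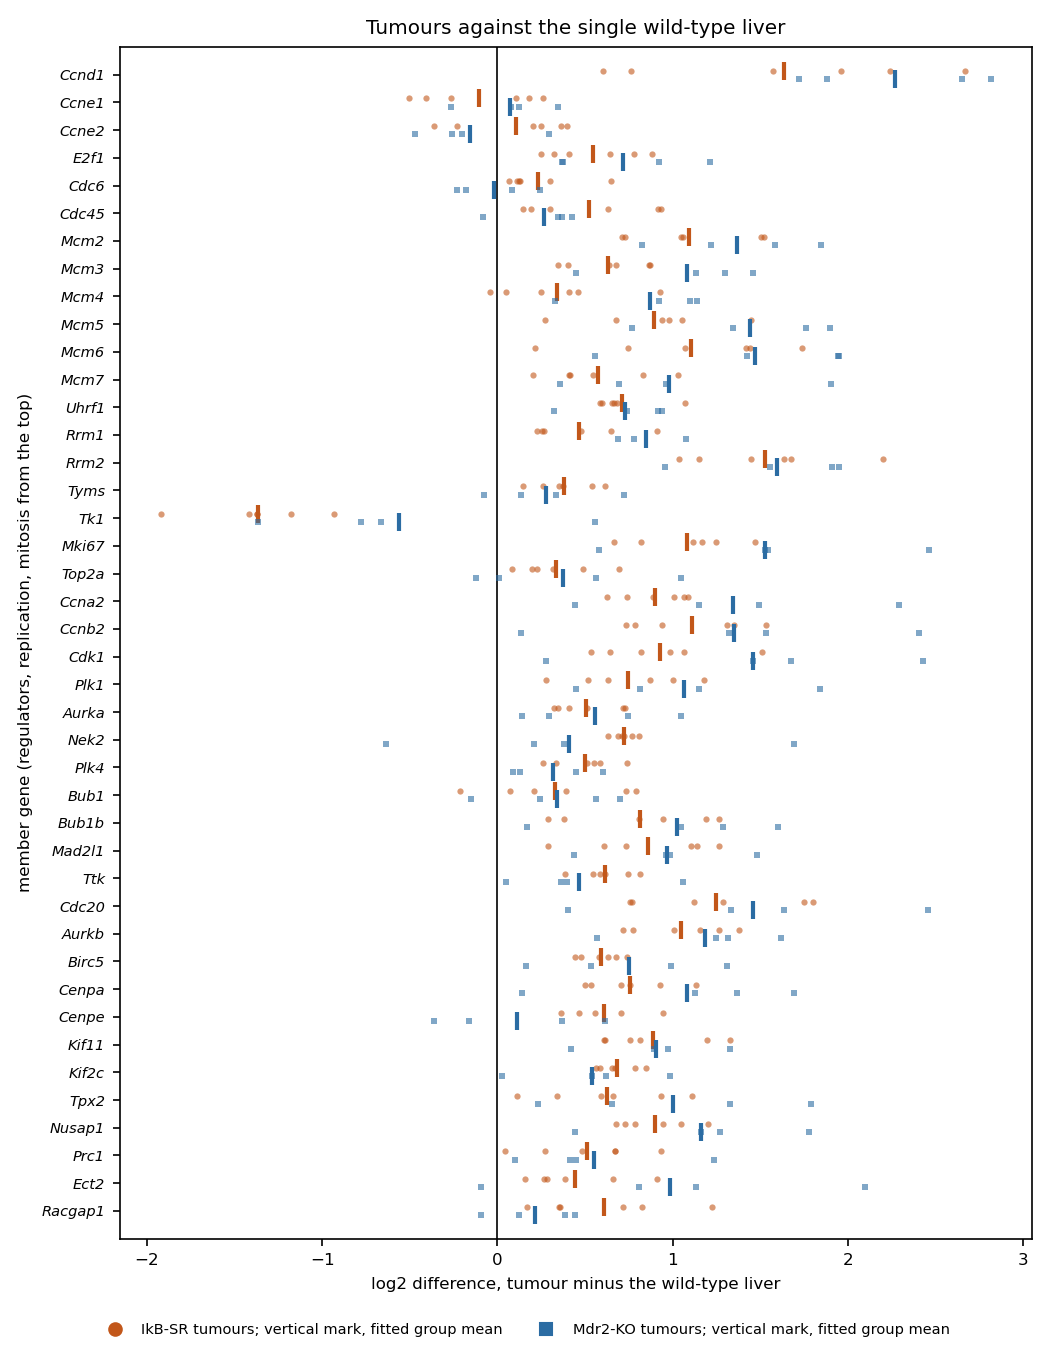
Log2 difference from the single wild-type liver for each of 42 members, with a point for each tumour and a vertical mark for the fitted mean of the IkB-SR and of the Mdr2-KO tumours. Mitosis members have both group marks right of 0 (25 of 25), and Tk1 has both marks left of it (-1.36 and -0.56).

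Further genes of the cycle, from lists that exclude the members, were measured alongside, and 0 of them passed in limma in any of the 3 comparisons. Of 37 other replication genes tested (42 named), 0 were higher and 3 lower in IkB-SR than in Mdr2-KO tumours at an unadjusted p under 0.05, with a median difference of 0.00. Over all features, 3.02% were higher and 9.34% lower at that p. Of 45 other mitosis genes (51 named), 0 were higher and 0 lower at that p, with a median of 0.01. Against the liver, the other mitosis genes had medians of 0.56 in IkB-SR and 0.51 in Mdr2-KO tumours, and the other replication genes 0.27 and 0.28. At an unadjusted p under 0.05, 12 of 44 other mitosis genes were above the liver in IkB-SR tumours and 14 in Mdr2-KO tumours, and 6 and 5 of 36 other replication genes were. The shares of all features above the liver at that p were 6.03% in IkB-SR tumours and 8.45% in Mdr2-KO tumours.

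G1 cyclins, their kinases and E2F factors (24 tested of 27) had 1 gene higher and 6 lower in IkB-SR tumours at an unadjusted p under 0.05, with a median of -0.20, where 3.02% of all features were higher and 9.34% lower. E2f4, a mainly repressive E2F factor, had -1.60 to -1.19 in IkB-SR tumours and -1.09, -1.06, -1.02 and -0.98 in Mdr2-KO tumours 1, 2, 5 and 7, a difference of -0.37 without overlap (limma adjusted p = 0.156). Myc, the growth-promoting transcription factor, had -3.49 to -2.41 in IkB-SR tumours and -2.35, -2.21, -2.22 and -1.58 in Mdr2-KO tumours, a difference of -0.74 without overlap (limma adjusted p = 0.197), and 3.03% of all features did not overlap. Cdk4, the kinase partner of D-type cyclins, differed by -0.45 (limma adjusted p = 0.198), with IkB-SR tumour 4 inside the Mdr2-KO range. These 3 genes were named because they had the lowest p-values of their list. Their differences were -0.35, -0.37 and -0.51 within set 1 and -0.39, -1.31 and -0.39 within set 2. For E2f4 and Myc the negative sign in both sets follows from the lack of overlap and adds nothing to it.

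Among cell cycle brakes (23 tested of 25), 1 was higher and 3 were lower at an unadjusted p under 0.05, near the shares of all features (3.02% and 9.34%), with a median of -0.02. Gadd45g, a stress-induced inhibitor of Cdk1 with cyclin B, differed by -0.93 (limma adjusted p = 0.28), Rbl1 (p107), a pocket protein, by -0.37 (0.378), and Ccng1, a p53 target, by 0.41 (0.355). Of the replication genes outside the members, Slbp, the histone mRNA binding protein, differed by -0.43 (limma adjusted p = 0.183), Gmnn (geminin), the inhibitor of origin licensing, by -0.42 (0.394) and Dut, the dUTPase, by -0.48 (0.395). The lowest p-values among the other mitosis genes were those of Anln at -0.38, Kif14 at 0.10 and Espl1 at -0.33 (limma adjusted p = 0.557, 0.572 and 0.585).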

How the data were processed

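Each of 11 RNA samples (6 IkB-SR tumours, 4 Mdr2-KO tumours, 1 wild-type liver) was hybridised on 2 two-colour spotted arrays of 37632 spots with swapped dyes. Per the labels' protocols, RNA was T7-amplified and set against a universal mouse reference, and the extraction text also mentions skin. The deposited values are log ratios normalized by the authors, read here as log2 of sample over reference: no source used here states the base, background correction, normalization or spot filter, and the direction is likely, since hepatocyte genes are far above 0. Spot intensities were not analysed here, so that depth is unknown. Because arrays of one RNA were averaged, the number of RNA samples limits the precision.

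Arrays held 19576 to 25000 spots with a value, and dye-swapped arrays correlated at r = 0.861 to 0.988 across spots. Arrays of one RNA were averaged where both had a value, then spots of one symbol, after updating old symbols through RefSeq synonyms. Features measured in 4 or more IkB-SR and 3 or more Mdr2-KO tumours were tested in limma 3.58.1 (R 4.3.3) with a mean for each of the 3 groups and Benjamini-Hochberg adjustment over all features (threshold 0.05), with the spread of the tumours taken for the lone liver. The procedure was tested on simulated data. Values per tumour are given for members with the lowest p, the largest SD or the largest and smallest difference from liver in each class, for Mki67, Top2a, Mcm2, Cdk1 and Ccnd1, and for a few others chosen after their values were seen. Members, lists and tests were chosen with earlier results of these data known. Alternatives were centring, quantile normalization, single dyes, dye sets, filters, spot choice, Eif2s3y as a covariate, array weights, all 22 arrays, and leaving out tumours. The dye-set interaction and the omission of Mdr2-KO tumours 2 and 5 together were added after seeing the data. Promoter windows came from RefSeq (GRCm38.p6).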

Additional observations from a re-analysis of the deposited data

How the results depend on the processing

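Leaving out each tumour in turn called 0 members in every comparison. No paired analysis was possible because the tumour groups share no replicate number and the liver shares only number 1 with the Mdr2-KO group. The number of tumours limits precision, the liver is 1 sample, and the causes of the shifts below were not tested. The Nfkbia difference ranged from 1.59 to 2.21 over omissions (exact p = 0.0833 without Mdr2-KO tumour 2, 5 or 7), and was 2.29 within set 1 and 0.80 within set 2.

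Between IkB-SR and Mdr2-KO tumours, the features called numbered 9 with median centring, 4 with values on all 22 arrays, 4 with the best-filled spot per symbol, 2 on Cy3 arrays, 1 on Cy5 arrays, 26 with quantile normalization, 3 with the dye set as covariate, 54 with array weights, 2 without Mdr2-KO tumours 2 and 5, 483 with all 22 arrays, and 0 to 32 over omissions (11 without IkB-SR tumour 4, 11 without the sample labelled IkB-SR 8, 32 without Mdr2-KO tumour 2). Class medians moved within set 1 to 0.31 (regulators) and 0.36 (mitosis), within set 2 to -0.74 and -0.70, and over omissions from -0.29 to -0.05 (regulators), -0.47 to -0.20 (replication) and -0.34 to 0.06 (mitosis). The mitosis median was also above 0 on Cy5 arrays (0.03) and with array weights (0.10). Signs turned on Cy5 arrays for Ccne1 (0.00038), Rrm2 (0.10), Top2a (0.10) and Bub1 (0.21). With quantile normalization they turned for Rrm2 (0.027), Top2a (0.060) and Bub1 (0.13), with the set covariate for Top2a (0.0043), with the Eif2s3y covariate for Bub1 (0.13) and Cdc20 (0.14), and with array weights for Rrm2 (0.14), Top2a (0.15), Ccnb2 (0.20), Bub1 (0.21) and Cdc20 (0.18). Within set 1 they turned for Ccnd1 (0.31), Ccne1 (0.16), E2f1 (0.31), Rrm2 (0.41), Mki67 (0.19), Top2a (0.45), Ccnb2 (0.56), Cdk1 (0.12), Bub1 (0.49) and Cdc20 (0.62), and within set 2 for Ccne2 (-0.34) and Racgap1 (-0.15). Omissions spanned 0 for Rrm2 (-0.28 to 0.051), Bub1 (-0.17 to 0.11), Top2a (-0.20 to 0.18), Ccnb2 (-0.64 to 0.11) and Cdc20 (-0.56 to 0.12).

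For IkB-SR tumours against liver (29 features called), the count was 13 on Cy3 arrays, 16 with quantile normalization, 0 within set 2, 11 without Mdr2-KO tumours 2 and 5, 366 with all 22 arrays (1 member, Rrm2) and 18 to 34 over omissions. The mitosis median was 0.95 on Cy5 arrays, and quantile normalization gave 0.25 for replication and 0.37 for mitosis. Signs turned for the regulator median in set 2 (-0.0055), for Ccne2 on Cy5 arrays (-0.033), with quantile normalization (-0.034), the set covariate (-0.0076), set 2 (-0.30) and the Eif2s3y covariate (-0.056), for Top2a with quantile normalization (-0.056) and for Bub1 with it (-0.037) and in set 2 (-0.070).

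For Mdr2-KO tumours against liver (43 features called), the count was 66 with a looser filter, 12 on Cy3 and 24 on Cy5 arrays, 25 with quantile normalization, 65 with the set covariate, 0 within set 2, 5 with the Eif2s3y covariate, 110 with array weights, 0 without Mdr2-KO tumours 2 and 5, 544 with all 22 arrays (6 members) and 14 to 43 over omissions. Quantile normalization gave a replication median of 0.41. Signs turned for Ccne1 with median centring (-0.0032), Cy5 arrays (-0.028), quantile normalization (-0.21), the set covariate (-0.0097) and the Eif2s3y covariate (-0.25), for Ccne2 on Cy3 arrays (0.0072), in set 2 (0.047) and without Mdr2-KO tumours 2 and 5 (0.018), and for Cdc6 on Cy3 arrays (0.17), with the set covariate (0.047), in set 2 (0.16) and without Mdr2-KO tumours 2 and 5 (0.0063). With quantile normalization Top2a was -0.12 and Bub1 -0.16. Omissions spanned 0 for Cdc6 (-0.11 to 0.049) and Ccne1 (-0.020 to 0.18).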
